A study of Mus musculus with 8 samples.

Results

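The blood endothelium genes are 10 genes given by symbol: Pecam1, Cdh5, Kdr, Tek, Tie1, Vwf, Eng, Nos3, Edn1 and Plvap. Each matched 1 row of the deposited count and FPKM tables, so 10 of the 56748 genes in the tables are described here, and all 10 passed the filter on low counts. The RNA came from whole skin of male mice aged 35 weeks that received no treatment. The NPY-tet group held 3 mice of the strain B6;129S4-Npytm2Rpa/J, homozygous for the tet allele of Npy (NPY tet/tet), and 5 of their NPY +/+ siblings formed the wild-type group. The series asks, by its title, about skin inflammation and fibrosis under raised NPY. For the tet allele the labels name no driver line, no cell type and no tetracycline regimen. Each library is 1 mouse. Whole skin includes epidermis, dermis, fat, muscle and blood, so in these bulk samples fewer endothelial cells and less RNA per endothelial cell cannot be told apart.

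Blood endothelium lines arteries, capillaries and veins. Its cells hold together through junction proteins, read growth signals through the VEGF and Tie receptor kinases, store clotting factor for release, and set vessel tone with the relaxing gas nitric oxide and the constricting peptide endothelin. In skin this lining feeds the dermis, the fat and the growing hair follicle, and it is the gate through which leukocytes leave the blood. Neuropeptide Y, the product of Npy, is a transmitter of the sympathetic nerves that run along blood vessels.

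Total counts were 32694123 to 35953372 in NPY-tet libraries and 31370433 to 47495565 in wild-type libraries. Nothing in the labels gives a batch. Npy stood at 300 to 322 CPM (counts scaled to library size) in the 3 NPY-tet libraries and at 0.159 to 0.502 CPM in the 5 wild-type libraries, with 10394 to 11864 and 5 to 15 counts. Ribosomal RNA genes took 6.54% of the counts in NPY-tet replicate 1 and 7.07% to 8.13% in wild-type replicates 1, 2, 3 and 5 (rRNA-rich libraries), but 0.0398% and 0.0759% in NPY-tet replicates 2 and 3 and 0.0647% in wild-type replicate 4 (rRNA-poor libraries). This split is not in the labels. The fold change within each set is given beside the pooled one for every member, and each set has 1 group of a single mouse, which is assumed to vary like the other.

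RefSeq's promoter table (build GRCm38.p6) held 5 of the 10 members: Kdr, Tek, Tie1, Eng and Edn1. The 250 bases before the start site are shown for a member that varied with the rest, the receptor gene Tie1 (chr4:118489850-118490099, minus strand), and for the member that varied apart from them, Edn1 (chr13:42301226-42301475, plus strand). Capitals mark matches to a single loose spelling of an ETS motif, CNGGAAG, in which N is any base. A match to it need not be a site that an ETS factor prefers. Binding at these matches was not tested.
Tie1: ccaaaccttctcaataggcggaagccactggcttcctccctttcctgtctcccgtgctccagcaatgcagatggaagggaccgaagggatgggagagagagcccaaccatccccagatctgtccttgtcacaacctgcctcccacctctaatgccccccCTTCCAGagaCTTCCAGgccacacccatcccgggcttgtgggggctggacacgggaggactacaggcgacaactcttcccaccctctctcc
Edn1: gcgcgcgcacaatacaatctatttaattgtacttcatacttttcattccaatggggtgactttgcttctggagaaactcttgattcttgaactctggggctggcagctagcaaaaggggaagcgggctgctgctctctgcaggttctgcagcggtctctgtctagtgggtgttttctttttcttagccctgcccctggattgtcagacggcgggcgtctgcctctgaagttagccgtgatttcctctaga
The windows were searched on both strands for 4 motifs. The ETS motif was spelled CNGGAAG and stands in 26.6% of all 32851 promoter windows of the same length. The GATA motif was spelled AGATAA and stands in 9.99% of them. The AP-1 motif was spelled TGANTCA and stands in 6.75%. The TATA motif was spelled TATAAA and stands in 12.4%. Tie1 held 2 ETS matches, which begin 91 and 81 bases before the start and do not overlap, and no other motif. None of the other 4 windows held any of the 4 motifs as spelled. Other spellings of an ETS site were not searched, so unmarked stretches of any window, that of Tie1 included, may still hold one.

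No blood endothelium gene differed between the genotypes past an adjusted p of 0.05. By edgeR's quasi-likelihood test, with Benjamini-Hochberg adjustment over 18495 genes, 0 of 10 members passed (adjusted p 0.795 to 0.907), where 0.00541% of all tested genes did, namely Npy alone. DESeq2 called 0 of 10 as well, where it called 0.334% of all genes, and so did limma-voom and limma on FPKM. The groups overlapped in CPM for all 10, where 3.78% of all genes had groups that did not (1.98% with NPY-tet lower, 1.81% with NPY-tet higher). At an unadjusted p under 0.05 there was 1 member, Cdh5, on the lower side, where 3.55% of all tested genes were (5.98% in either direction). The fitted values were below 0 for 8 members, against 49.3% of all genes, and above 0 for Kdr and Edn1. The median log2 fold change of NPY-tet over wild-type was -0.22 over the 10 members and 0.00 over all genes tested. That median rested on NPY-tet replicate 2, without which it was -0.01.

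**Figure D1:**
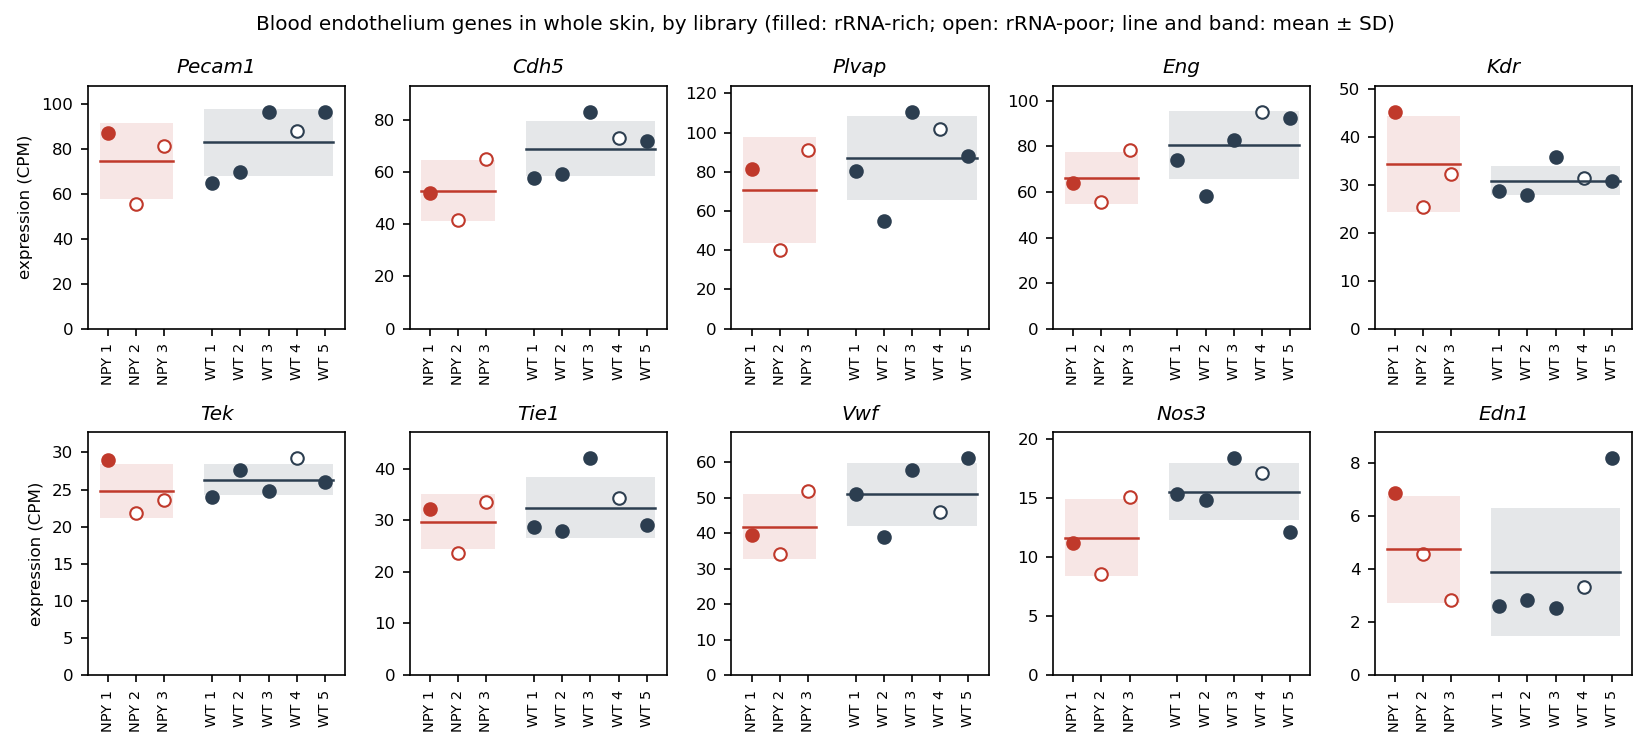
Expression of each gene in CPM (vertical axis, from 0) in the 3 NPY-tet libraries (red, left) and the 5 wild-type libraries (dark, right), with filled points for rRNA-rich and open points for rRNA-poor libraries, and the group mean ± SD as line and band. The groups overlap for all 10 genes, and NPY-tet replicate 2 is the lowest library for 9 of them.

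The junction genes come first. Cdh5 (ENSMUSG00000031871, chromosome 8, 104828257 to 104871143, plus strand, mm39) encodes VE-cadherin, the adhesion protein of the junctions between endothelial cells. Cdh5 stood at 52.0, 41.6 and 64.9 CPM in NPY-tet replicates 1 to 3 and at 57.8, 59.3, 83.1, 73.2 and 71.8 CPM in wild-type replicates 1 to 5. NPY-tet replicates 1 and 2 lay below every wild-type library and replicate 3 lay inside the wild-type range. The log2 fold change was -0.39 (SE 0.17, 95% interval -0.76 to -0.02), with an unadjusted p of 0.0425 and an adjusted p of 0.795 by edgeR. Without NPY-tet replicate 2 it was -0.24. Split by ribosomal RNA, the log2 fold change of Cdh5 was -0.37 (rRNA-rich set) and -0.47 (rRNA-poor set), and neither passed.

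Pecam1 (ENSMUSG00000020717, chromosome 11, 106545043 to 106641454, minus strand) encodes CD31, an adhesion molecule of endothelium that platelets and some leukocytes also carry. Pecam1 stood at 86.8, 55.1 and 81.1 CPM in NPY-tet replicates 1 to 3 and at 64.7, 69.6, 96.1, 87.6 and 96.3 CPM in wild-type replicates 1 to 5. Only NPY-tet replicate 2 was outside the wild-type range. The log2 fold change was -0.16 (SE 0.18, adjusted p = 0.873 by edgeR), with 0.11 for the rRNA-rich set and -0.37 for the rRNA-poor set. Cdh5 and Pecam1 thus had opposite signs in the rRNA-rich set, a difference that was not tested.

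Plvap (ENSMUSG00000034845, chromosome 8, 71950409 to 71964396, minus strand) encodes the protein of the diaphragms that span caveolae and the pores of permeable capillaries. Plvap stood at 81.4, 40.2 and 91.3 CPM in NPY-tet replicates 1 to 3 and at 80.4, 55.1, 111, 102 and 88.0 CPM in wild-type replicates 1 to 5. The lowest NPY-tet and the highest wild-type library lay 2.75-fold apart, the widest range among the members after Edn1. The log2 fold change was -0.30 (SE 0.28, adjusted p = 0.847 by edgeR) and came to -0.01 without NPY-tet replicate 2. It was -0.02 in the rRNA-rich set and -0.64 in the rRNA-poor set.

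Of the 4 receptor genes, Kdr, Tek and Tie1 had log2 fold changes between -0.12 and 0.15, and Eng had -0.29. Kdr (ENSMUSG00000062960, chromosome 5, 76093487 to 76139118, minus strand) encodes VEGFR2, the main signalling receptor for VEGF-A. Kdr stood at 45.3, 25.5 and 32.3 CPM in NPY-tet replicates 1 to 3 and at 28.7, 27.9, 35.8, 31.5 and 30.7 CPM in wild-type replicates 1 to 5. NPY-tet replicate 1 lay above every wild-type library and NPY-tet replicate 2 below every one. The log2 fold change was 0.15 (SE 0.18, 95% interval -0.23 to 0.54, adjusted p = 0.871 by edgeR), and without NPY-tet replicate 1 it was -0.09. Kdr depended on the set, with 0.58 in the rRNA-rich set, whose NPY-tet mouse is replicate 1, and -0.13 in the rRNA-poor set, and neither passed.

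Tek and Tie1 encode the 2 receptors of the Tie family, Tie2, which binds the angiopoietins, and Tie1, which modulates it. Tek (ENSMUSG00000006386, chromosome 4, 94627526 to 94763213, plus strand) was the steadiest member, at 28.9, 21.9 and 23.6 CPM in NPY-tet replicates 1 to 3 and at 24.0 to 29.2 CPM in wild-type libraries. Its log2 fold change of -0.09 (SE 0.14) had a 95% interval of -0.39 to 0.21, and it was 0.20 in the rRNA-rich set and -0.37 in the rRNA-poor set. Tie1 (ENSMUSG00000033191, chromosome 4, 118328388 to 118347258, minus strand) stood at 32.2, 23.6 and 33.5 CPM in NPY-tet replicates 1 to 3 and at 28.0 to 42.0 CPM in wild-type libraries. Its log2 fold change was -0.12 (SE 0.17), with a 95% interval of -0.50 to 0.26. By set it was 0.0327 (rRNA-rich) and -0.28 (rRNA-poor). For both Tie genes the lowest library was again NPY-tet replicate 2. Eng (ENSMUSG00000026814, chromosome 2, 32536607 to 32572681, plus strand) encodes endoglin, a co-receptor for BMP9 that acts with the kinase ALK1. Eng stood at 63.9, 55.7 and 78.3 CPM in NPY-tet replicates 1 to 3 and at 58.3 to 95.2 CPM in wild-type libraries, with a log2 fold change of -0.29 (SE 0.17, adjusted p = 0.800 by edgeR). By set it was -0.25 (rRNA-rich) and -0.52 (rRNA-poor), and without NPY-tet replicate 2 it was -0.18.

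**Figure D2:**
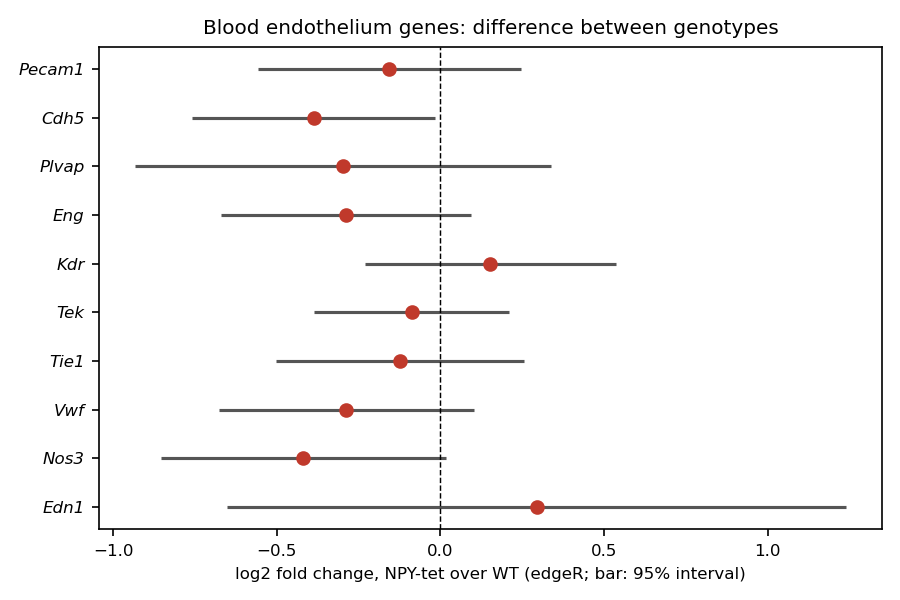
Log2 fold change of NPY-tet over wild-type (horizontal axis) for each of the 10 genes, as points with 95% intervals from edgeR's quasi-likelihood fit. Every interval spans 0 except that of Cdh5 (-0.76 to -0.02), and that of Edn1 is the widest (-0.65 to 1.24).

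Vwf and the 2 genes of vessel tone complete the set. Vwf (ENSMUSG00000001930, chromosome 6, 125523737 to 125663642, plus strand) encodes von Willebrand factor, the platelet-binding protein that endothelium stores in Weibel-Palade bodies. It stood at 39.5, 34.0 and 51.8 CPM in NPY-tet replicates 1 to 3 and at 39.0 to 61.0 CPM in wild-type libraries, with a log2 fold change of -0.29 (SE 0.18, adjusted p = 0.805 by edgeR). By set it was -0.38 (rRNA-rich) and -0.11 (rRNA-poor). It was -0.16 without NPY-tet replicate 2 and -0.47 without NPY-tet replicate 3. Nos3 (ENSMUSG00000028978, chromosome 5, 24569808 to 24589472, plus strand) encodes endothelial nitric oxide synthase. Nos3 stood at 11.2, 8.59 and 15.1 CPM in NPY-tet replicates 1 to 3 and at 15.4, 14.8, 18.4, 17.1 and 12.1 CPM in wild-type replicates 1 to 5. NPY-tet replicates 1 and 2 lay below every wild-type library. The log2 fold change of -0.42 was the lowest of the 10 members (SE 0.20, 95% interval -0.86 to 0.02), with an unadjusted p of 0.0578 and an adjusted p of 0.795 by edgeR. For Nos3 it was -0.41 in the rRNA-rich set and -0.54 in the rRNA-poor set. Without NPY-tet replicate 2 it was -0.24, and without NPY-tet replicate 3 it was -0.65.

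Edn1 (ENSMUSG00000021367, chromosome 13, 42454952 to 42461466, plus strand) encodes the precursor of endothelin-1, a vasoconstrictor peptide that keratinocytes make as well as endothelium. It was the rarest member by counts, with 75 to 266 counts per library. Edn1 stood at 6.85, 4.55 and 2.83 CPM in NPY-tet replicates 1 to 3 and at 2.60, 2.81, 2.51, 3.30 and 8.16 CPM in wild-type replicates 1 to 5. The highest library was a wild-type one, and NPY-tet replicate 3 lay among the other 4 wild-type libraries. The log2 fold change was 0.29 (SE 0.43, 95% interval -0.65 to 1.24, adjusted p = 0.901 by edgeR). It moved to 0.76 without wild-type replicate 5, where it did not pass either, and to -0.07 without NPY-tet replicate 1. By set it was 0.79 (rRNA-rich) and 0.15 (rRNA-poor).

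The libraries highest in Edn1 were also those highest in genes of the growing hair follicle. The summed level of 10 hair matrix and shaft genes was 212, 729 and 63.4 CPM in NPY-tet replicates 1 to 3 and 30.5, 4.76, 7.71, 8.42 and 889 CPM in wild-type replicates 1 to 5. The 3 libraries highest in Edn1 (NPY-tet replicates 1 and 2 and replicate 5 of the wild type) were the 3 highest in these hair genes, although the orders differed, both among these 3 and among the other 5. None of the 10 hair genes was at 0 in all libraries. The part of hair growth in the Edn1 values was not tested, and the share of all genes with the same 3 highest libraries was not counted. These 3 libraries were also alike over all tested genes. There the deviations of NPY-tet replicates 1 and 2 from their group mean correlated best with those of wild-type replicate 5 (0.175 and 0.35). Basal keratinocyte markers, another source of Edn1, summed to 8282 to 11796 CPM in NPY-tet libraries and to 8381 to 13271 CPM in wild-type libraries.

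**Figure D3:**
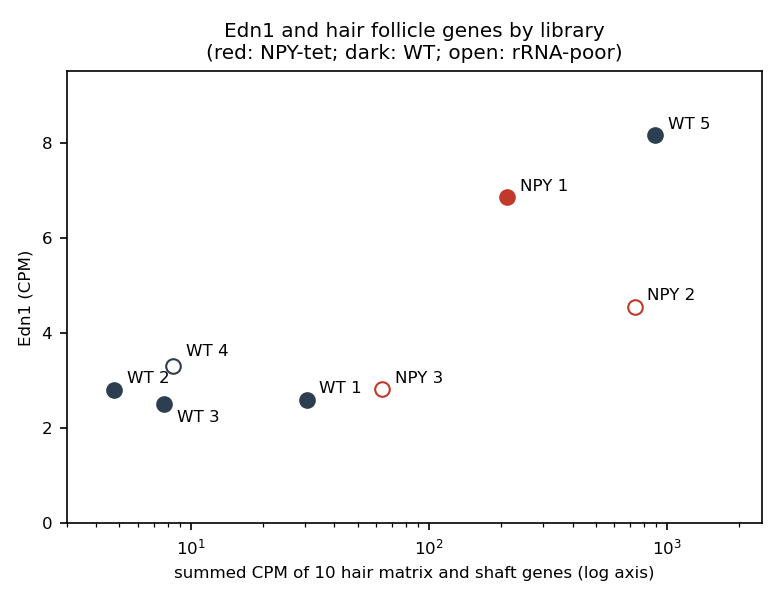
Level of Edn1 in CPM (vertical axis) against the summed CPM of 10 hair matrix and shaft genes (horizontal log axis) in 3 NPY-tet (red) and 5 wild-type (dark) libraries, with open points for rRNA-poor libraries. NPY-tet replicates 1 and 2 lie with replicate 5 of the wild type at the upper right, and the other 5 libraries lie between 2.51 and 3.30 CPM of Edn1.

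Across libraries 9 of the 10 members shared a low point in NPY-tet replicate 2. That library lay below every wild-type library for 9 members, all but Edn1, and above every one for 0, where 20% of all tested genes lay below and 19.8% above. It was the lowest of all 8 libraries for the same 9 members, against 12.6% of all tested genes. The 9 genes share the cells they come from and the library, so they are not independent readings. NPY-tet replicate 1 lay below every wild-type library for Cdh5 and Nos3 (background 23.7%) and above every one for Kdr (background 22.9%), and was within the wild-type range for the other 7. NPY-tet replicate 3 was within the wild-type range for 9 members and below it for Tek (background 10.7% below, 10.6% above). The summed level of the 10 members was 448, 311 and 475 CPM in NPY-tet replicates 1 to 3 and 427, 383, 554, 519 and 516 CPM in wild-type replicates 1 to 5. The wild-type mice thus differed among themselves as well, with replicate 2 the lowest of them and replicate 3 the highest.

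**Figure D4:**
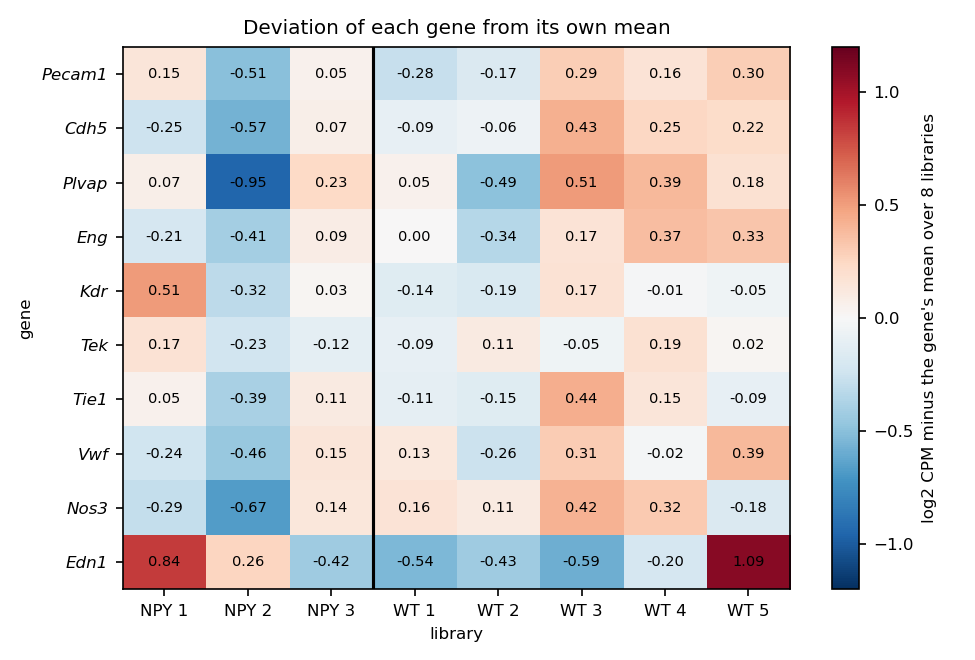
Log2 CPM of each gene (rows) in each library (columns, NPY-tet left of the line) minus that gene's mean over the 8 libraries, with the value printed in each cell. NPY-tet replicate 2 is below the mean for 9 genes (-0.23 for Tek to -0.95 for Plvap), while Edn1 is highest in wild-type replicate 5 (1.09) and NPY-tet replicate 1 (0.84).

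The members were unequal in how far they varied. The SD of log2 CPM over the 8 libraries was 0.15 for Tek, 0.25 to 0.36 for Tie1, Kdr, Pecam1, Eng, Vwf, Cdh5 and Nos3, 0.49 for Plvap and 0.65 for Edn1. Pecam1 lay nearest to the mean profile of the other 9 members, with a root mean square difference of 0.10 in log2 CPM, and Edn1 lay farthest, at 0.68. Taken relative to Cdh5 in the same library, a ratio chosen with the values known, Kdr and Tie1 had groups that did not overlap. The log2 ratio of Kdr to Cdh5 averaged -0.64 ± 0.41 in NPY-tet and -1.15 ± 0.10 in wild-type libraries (SD, n = 3 and 5), with every NPY-tet library above every wild-type one. That of Tie1 to Cdh5 averaged -0.82 ± 0.13 and -1.09 ± 0.13 in the same order of groups, again without overlap. The other 7 ratios overlapped. Of all tested genes, 5.3% had a ratio to Cdh5 that was higher in every NPY-tet library, and 5.5% had no overlap in either direction. Cdh5 itself had a log2 fold change of -0.39, and a low Cdh5 raises every ratio to it. Those shares also cover genes that vary apart from Cdh5, so they are no like background for 2 of 9 members. No test was made.

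Levels can be compared between genes only per length. On the FPKM scale (fragments scaled to gene length and library size) Plvap was the most abundant member in all 8 libraries, at 35.3 ± 13.5 FPKM in NPY-tet and 43.4 ± 10.7 FPKM in wild-type skin (SD, n = 3 and 5). Eng was next in all 8 libraries, at 16.1 ± 2.83 and 19.7 ± 3.75 FPKM in NPY-tet and wild-type skin. Cdh5 (12.4 ± 2.77 and 16.2 ± 2.53 FPKM, groups as before) came above Pecam1 (11.8 ± 2.69 and 13.2 ± 2.41 FPKM) in 7 of 8 libraries, the exception being NPY-tet replicate 1. Tie1, between 4.73 and 6.74 FPKM in NPY-tet and 5.62 and 8.44 FPKM in wild-type skin, came above Tek in 7 of 8 libraries. Tek lay between 4.58 and 6.06 FPKM in NPY-tet and 4.99 and 6.15 FPKM in wild-type skin. Kdr (3.76 ± 1.10 and 3.39 ± 0.34 FPKM), Nos3 (2.78 ± 0.79 and 3.72 ± 0.57 FPKM) and Vwf (2.57 ± 0.56 and 3.14 ± 0.55 FPKM) did not differ from each other beyond the spread, with Kdr above Nos3 in 3 of 8 and Nos3 above Vwf in 6 of 8. Edn1 was the least abundant on average, at 2.19 ± 0.93 and 1.79 ± 1.13 FPKM, and ranked between 7 and 10 among the members.

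The libraries are non-directional, so reads from overlapping genes on opposite strands cannot be told apart where their exons overlap. Nos3 overlaps the autophagy gene Atg9b on the other strand, which had 8030 counts over the 8 libraries against 4115 for Nos3. Eng overlaps Fpgs (8093 counts against 21884 for Eng) and Plvap overlaps Gtpbp3 (5287 against 23544) in the same way. Single values of Nos3, Eng and Plvap are uncertain to that extent. Pecam1, Kdr, Tek, Tie1 and Vwf overlap no other gene of the table.

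Other genes of vessels and of the signals that act on them were taken from 9 lists. The lists hold 92 genes beside the members, 85 of them tested. Other cells of whole skin can express these genes as well, so their values are not readings of the vessel wall alone. By edgeR 0 of the 85 passed an adjusted p of 0.05, and DESeq2, limma-voom and limma on FPKM also called 0. Of the 85, 7 had an unadjusted p below 0.05, of which 1 was on the higher side (background 2.43%) and 6 on the lower side (3.55%). The groups did not overlap for 1, Vegfd (background 3.78%). The fitted value was above 0 for 41 and below 0 for 44, with a median of -0.02. In the rRNA-rich set, where 1 NPY-tet mouse met 4 wild-type mice, 5 of 86 tested genes passed (1.66% of all genes did), and in the rRNA-poor set 3 of 86 did (1.17% of all genes).

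Of 24 other pan-endothelial genes 11 had fitted values above 0 and 13 below, with a median of -0.05, and 0 had an unadjusted p under 0.05. The smallest p belonged to Mmrn2, a matrix glycoprotein of endothelium, at 23.9 ± 4.91 CPM in NPY-tet and 29.3 ± 4.25 CPM in wild-type skin. It was also one of the 8 genes whose profile over the 8 libraries lay nearest to the members' mean profile (root mean square difference 0.08 in log2 CPM, among 11169 genes of at least 5 CPM). The other 7 were Rab11b-ps2, B3gnt3, Atg7, Psmd13, Rnf114, Eif3h and Emc3, so the nearest profiles were mostly not those of vessel genes. The pan-endothelial genes varied in this likeness, since Sox18 and Esam were in the nearest 1.24% and 3.46% of genes while Cldn5 was at 84.7%. Sox18, Esam and Cldn5 were chosen after their values were seen.

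**Figure D5:**
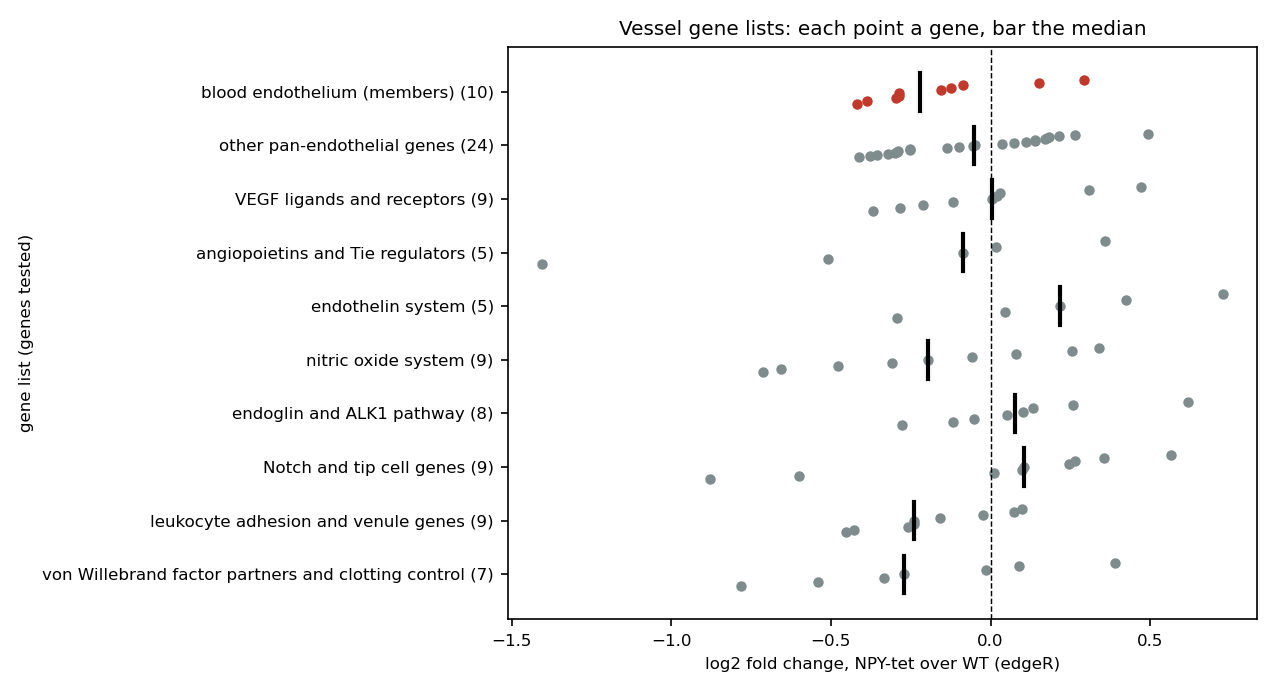
Log2 fold change of NPY-tet over wild-type (horizontal axis) for every tested gene of 10 vessel gene lists (rows, with the number tested), the 10 blood endothelium genes in red and the median of each list as a bar. The medians lie between -0.27 and 0.22, and that of the blood endothelium genes is -0.22.

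Genes of the VEGF, angiopoietin and endoglin lists, not all of them ligands or partners of the 4 receptor members, had fitted values on both sides of 0. Vegfa, the main ligand of VEGFR2, stood at 148, 70.1 and 61.2 CPM in NPY-tet replicates 1 to 3 and at 52.7 to 82.9 CPM in wild-type libraries, so that the mean rested on NPY-tet replicate 1, the library that was also highest in Kdr. Vegfb (64.3 ± 7.93 and 83.0 ± 12.9 CPM in NPY-tet and wild-type skin) and Vegfd (19.6 ± 2.10 and 23.9 ± 0.94 CPM) had an unadjusted p of 0.0289 and 0.0420 and an adjusted p of 0.795 each by edgeR. All 3 NPY-tet libraries lay below the wild-type ones for Vegfd (background 1.98%). Angpt1, the activating ligand of Tie2, stood at 5.77 ± 0.69 and 8.19 ± 2.70 CPM, and Angpt2, its context-dependent antagonist, at 4.07 ± 0.96 and 3.17 ± 0.48 CPM. Angpt4 had the lowest fitted value of the lists, at 0.206, 0.678 and 2.48 CPM in NPY-tet replicates 1 to 3 and 2.38 to 4.02 CPM in wild-type libraries (log2 fold change -1.40, SE 0.62, adjusted p = 0.795 by edgeR). Of the endoglin and ALK1 list 5 of 8 tested genes were above 0 and 3 below, among them Acvrl1, the ALK1 kinase, at 47.2 ± 13.5 and 57.3 ± 6.46 CPM, and Id1, a target of BMP signalling, at 38.4 ± 4.58 and 32.1 ± 3.02 CPM.

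Genes of vessel tone did not pass either. Of the 5 tested genes of the endothelin list 4 had fitted values above 0. The receptors stood at 16.8 ± 0.57 CPM in NPY-tet and 20.6 ± 5.18 CPM in wild-type skin for Ednra, which acts in smooth muscle, and at 26.3 ± 9.31 and 19.6 ± 8.12 CPM for Ednrb, which melanocytes also carry. Of the 9 genes of the nitric oxide list 6 were below 0, among them Nos2, the inducible synthase (1.83 ± 0.27 and 2.99 ± 0.68 CPM, adjusted p = 0.795 by edgeR), and Cav1, the caveolar protein that binds the endothelial synthase (437 ± 166 and 608 ± 132 CPM).

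Among the Notch, adhesion and clotting genes 2 had the smallest p of all 85. Aplnr, the apelin receptor of sprouting and venous endothelium, stood at 6.49, 8.18 and 12.5 CPM in NPY-tet replicates 1 to 3 and at 12.2 to 21.9 CPM in wild-type libraries, with 1 NPY-tet library inside the wild-type range. Its log2 fold change was -0.88 (SE 0.24), with an unadjusted p of 0.00317 and an adjusted p of 0.566 by edgeR, and an adjusted p of 0.0761 by DESeq2. Thbd, thrombomodulin, the thrombin receptor that starts protein C activation, stood at 41.9, 54.7 and 93.7 CPM in NPY-tet replicates 1 to 3 and at 79.1 to 119 CPM in wild-type libraries (log2 fold change -0.78, SE 0.24). Its unadjusted p was 0.00859 and its adjusted p was 0.708 by edgeR. Jag1, a Notch ligand, was the one gene on the higher side, at 80.6 ± 12.5 and 63.0 ± 8.98 CPM, with an unadjusted p of 0.0348 and an adjusted p of 0.795 by edgeR. Of the 9 leukocyte adhesion genes 7 were below 0 and 0 had an unadjusted p under 0.05, with Icam1 at 25.7 ± 2.87 and 30.7 ± 3.97 CPM and E-selectin, Sele, at 1.42 ± 0.65 and 1.95 ± 0.64 CPM.

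Markers of other cells moved with some of these values, and their part in them was not tested. The 6 white adipocyte markers, all with fitted values below 0, summed to 2301, 2014 and 5239 CPM in NPY-tet replicates 1 to 3 and to 3590 to 6193 CPM in wild-type libraries, so the 2 NPY-tet libraries low in Cdh5, Nos3, Aplnr and Thbd were also the 2 low in fat markers. Of the 8 macrophage markers, all below 0 as well, 4 had an unadjusted p under 0.05 by edgeR (background 3.55%) and 0 passed. All NPY-tet libraries lay below the wild-type ones for Mrc1 and Fcgr1 (background 1.98%). The 8 markers summed to 679, 437 and 747 CPM in NPY-tet replicates 1 to 3 and to 671 to 1040 CPM in wild-type libraries. Their sum was lowest in the same NPY-tet replicate 2 as the members. The sum of the red blood cell genes was lowest there too, at 525, 225 and 491 CPM in NPY-tet replicates 1 to 3. It was 245 to 536 CPM in wild-type libraries. In wild-type replicates 4 and 5 the red blood cell sum was 246 and 245 CPM, and the members' sum was 519 and 516 CPM. Platelet markers, whose cells also hold Vwf and Pecam1, summed to 34.6 to 46.7 CPM in NPY-tet and 37.2 to 61.5 CPM in wild-type libraries, most of it Pf4. Of the platelet receptor genes on that list, Itga2b had at most 186 counts in any library, Gp5 at most 22, and Gp9 and Gp6 at most 1. Of the 6 lymphatic endothelium markers, cells that share Pecam1 and Cdh5 with blood endothelium, 4 were above 0 and 2 below, with sums of 83.8 to 135 CPM in NPY-tet and 98.1 to 119 CPM in wild-type libraries. For 2 of the 6 the groups did not overlap, on opposite sides, where 3.78% of all tested genes had no overlap (1.98% with NPY-tet lower, 1.81% higher). Lyve1, a hyaluronan receptor that some macrophages also carry, stood at 28.5, 16.7 and 20.5 CPM in NPY-tet replicates 1 to 3 and at 7.42 to 13.1 CPM in wild-type libraries (log2 fold change 1.09, SE 0.23, adjusted p = 0.346 by edgeR). Ccl21a, a chemokine that draws leukocytes into lymphatics, stood at 25.4, 30.8 and 18.6 CPM in NPY-tet replicates 1 to 3 and at 39.2 to 51.4 CPM in wild-type libraries (log2 fold change -0.88, SE 0.17, adjusted p = 0.346 by edgeR). The near-identical copies of Ccl21a in the mouse genome make its counts uncertain. The 6 fibroblast markers summed to 2429, 17741 and 25117 CPM in NPY-tet replicates 1 to 3 and 10152 to 23945 CPM in wild-type libraries. The lowest sum was in NPY-tet replicate 1, the library highest in Kdr and Vegfa and next to highest in Edn1. The gap was widest in the collagen genes, with Col1a1 at 423 CPM there and 3269 to 9146 CPM in wild-type libraries. Lum (69.5 against 161 to 303 CPM) and Dcn (1002 against 1069 to 1165 CPM) were lower there too. Pdgfra, at 72.7 CPM, lay inside the wild-type range of 61.5 to 80.8 CPM. Smooth muscle and pericyte markers, the cells around the vessel lining, summed to 488 to 626 CPM in NPY-tet and 536 to 586 CPM in wild-type libraries. Fitted values were above 0 for 4 of the 9 markers and below 0 for 5, with a median of -0.0027. Of that list Myh11, the smooth muscle myosin, stood at 72.6 ± 4.90 and 55.7 ± 6.51 CPM (adjusted p = 0.711 by edgeR). All NPY-tet libraries lay above the wild-type ones for Myh11, as for 1.81% of all tested genes. Skeletal muscle markers, 6 in number, had fitted values below 0 for 5 and above 0 for 1. They summed to 25448, 35957 and 38722 CPM in NPY-tet replicates 1 to 3 and to 25332 to 62701 CPM in wild-type libraries.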

How the data were processed

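Skin RNA from 8 mice was sequenced as poly-T selected, non-directional libraries, according to the protocols in the labels. The authors deposited raw counts for each gene and mouse. They also deposited FPKM, which their values show to be those counts divided by gene length and by 1 library size factor per mouse. The build is mm39, per the submitters' processing notes, which also name HISAT2 2.0.5 and featureCounts 1.5.0-p3 among the tools without saying how each was used. Columns were joined to mice by the titles, and the library names in the descriptions carry a higher mouse number for some, with the same genotype.

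Counts were fitted with edgeR 4.0.16 in R 4.3.3 (filterByExpr by group, 18495 genes kept, TMM size factors, robust quasi-likelihood F-test, two-sided, genotype as covariate, Benjamini-Hochberg over all genes tested, threshold 0.05). An SE is the size of the log2 fold change over the square root of F, and 95% intervals use the fit's degrees of freedom. CPM use the TMM factors, and ± marks an SD over mice. Centred log2 CPM used a prior count of 2. Over all genes the biological coefficient of variation came to 0.318. Alternatives used DESeq2 1.42.0, limma 3.58.1 (voom, and log2 FPKM with pseudocounts of 1 and 0.1 for genes of at least 0.1 FPKM on average), other size factors and filters, the replicate block, the ribosomal RNA sets (boundary 1% of counts) and each library left out in turn.

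The members and lists were chosen with earlier results of these data known. Named are all members, the 3 genes of smallest p per vessel list (of which the text gives examples) and the 8 genes nearest to the members' mean profile, as the root mean square difference in centred log2 CPM among genes of at least 5 CPM with an SD of at least 0.5 times that of the mean profile. Genes named as markers of other cells, Sox18, Esam and Cldn5, and genes that overlap a member lie outside this rule and were chosen with their values seen.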

Additional observations from a re-analysis of the deposited data

Results flagged for a closer look

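Within the 5 wild-type mice, 12 quantities were checked for a library far from the others (the 10 members, their sum and Npy), with a gap over the range of more than 0.71, which chance gives in about 1 of 20 groups. Edn1 in wild-type replicate 5 was 8.16 CPM, with a gap of 0.861 of the range, the library with the highest sum of hair follicle genes. Npy in wild-type replicate 5 was 0.502 CPM (15 counts), with a gap of 0.938 of the range, far below the NPY-tet libraries.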

How the results depend on the processing

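No member passed the threshold under any alternative run (other size factors, filters, tools, replicate block, ribosomal RNA settings, each library left out). Of 210 member values under alternatives 202 kept their sign. The 8 that turned, with no cause tested, were Pecam1 (0.11), Tek (0.20) and Tie1 (0.0327) in the rRNA-rich libraries alone, Kdr in the rRNA-poor ones (-0.13), and, with a library left out, Kdr (-0.0909) and Edn1 (-0.0667) without NPY-tet replicate 1 and Pecam1 (0.0201) and Tie1 (0.0214) without NPY-tet replicate 2. Leaving out 1 library in turn gave -0.28 to 0.02 for Pecam1, -0.09 to 0.33 for Kdr, -0.21 to 0.02 for Tie1, -0.07 to 0.76 for Edn1, -0.56 to -0.24 for Cdh5, -0.65 to -0.24 for Nos3, -0.47 to -0.16 for Vwf, -0.43 to -0.18 for Eng, -0.52 to -0.01 for Plvap and -0.21 to -0.00431 for Tek. The members' median lay between -0.32 (without NPY-tet replicate 3) and -0.01 (without NPY-tet replicate 2), and was 0.01 in the rRNA-rich set and -0.37 in the rRNA-poor set, whose arms of 1 mouse are assumed to vary like the other arm. The count over all genes, 1 here, was 1 to 8 with a library left out (8 without NPY-tet replicate 3), 21 with no filter, 64 by DESeq2, 3 by limma-voom, 2 by limma on FPKM with either pseudocount, 11 with a term for the ribosomal RNA set, and 332 and 227 in the rRNA-rich and rRNA-poor libraries alone. Nothing in the labels pairs the same-numbered mice. Deviations of pairs 1, 2 and 3 correlated at -0.044, -0.105 and 0.298, the last being the highest for NPY-tet replicate 3. For NPY-tet replicates 1 and 2 the highest was with wild-type replicate 5, at 0.175 and 0.35. NPY-tet replicate 3 correlated with that library at -0.451. Such correlations cannot show whether mice were paired. With the replicate block on these 6 libraries 0 members and 1 gene passed and the members' median was -0.13. Among the genes of the vessel lists Nos1 and Ednrb, named after their values were seen, stood at 28.7 and 6.68 CPM in wild-type replicate 4. That replicate is the only wild-type mouse of the rRNA-poor set. In the other wild-type libraries Nos1 stood at 68.6 to 108 CPM and Ednrb at 18.3 to 28.3 CPM. Skeletal muscle markers also had their lowest sum in wild-type replicate 4 (25332 CPM), and their part in Nos1 and Ednrb was not tested. Counting error is largest for Edn1, the member with the fewest counts.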
